A study of Mus musculus with 8 samples.

Results

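The genes of the platelet-derived growth factor (PDGF) system were examined for binding of ZFP281 in mouse mammary spheres. The set holds 6 genes, namely the receptor genes Pdgfra and Pdgfrb and the ligand genes Pdgfa, Pdgfb, Pdgfc and Pdgfd, of 21883 protein-coding genes on chromosomes 1 to 19, X and Y. They were chosen by name, as all classical receptors and ligands of the family, with earlier results of these data known. ZFP281 summits were counted in each gene and up to 20 kb beyond either end (genome build mm10). All animals were MMTV-HER2/Neu mice on the FvB background, in which a mouse mammary tumour virus promoter drives the HER2/Neu oncogene in the mammary gland. Early lesion (EL) spheres came from mammary glands of animals aged 14 to 18 weeks with no palpable tumour, and primary tumour (PT) spheres from tumours of animals over 20 weeks old. Each culture was kept for 7 days in mammosphere medium on plates of ultra-low adhesion, and each group gave 3 ZFP281 libraries and 1 input library. The inputs were not analysed here.

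Several properties of the data limit what a count of summits shows. The tissue label of the EL samples reads mammary lung and that of the PT samples breast tumor, while the cell type label reads breast cancer cells for both. The labels name biological replicates but no animals, so the p-values below measure the spread between these libraries only, and no group without the oncogene was included. The EL lists held 8588, 15770 and 7055 summits and the PT lists 2897, 4030 and 6033, given here and below in the order of the replicate numbers. Read depth is unknown. Because the lists differ in length, counts were also made in equal lists, each cut to the 2897 summits with the best scores. Such a list reached down to a score of 23.3 in EL replicate 2 and to 1.42 in PT replicate 1, the score being the authors' own and probably a −log10 q-value. Spheres are bulk samples, so binding in fewer cells and weaker binding per cell cannot be told apart. Summit lists hold no expression values, and the labelled cell type could not be checked by RNA markers.

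PDGFs are dimeric growth factors that bind the receptor tyrosine kinases PDGFRα and PDGFRβ. Epithelial and endothelial cells are known sources of the ligands, while the receptors are known for marking mesenchymal cells, PDGFRα mainly fibroblasts and PDGFRβ mainly mural cells of vessels and fibroblasts. PDGF-A and PDGF-B are processed inside the cell, whereas PDGF-C and PDGF-D are secreted as latent proteins and released by proteases. ZFP281 is a zinc finger transcription factor known to bind G-rich DNA and to act in pluripotent cells.

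Promoter windows from RefSeq (GRCm38.p6, the mm10 build, C57BL/6J reference) were given for 4 of the 6 genes, Pdgfra, Pdgfa with 2 start sites, Pdgfc and Pdgfd. Each window spans 300 bases around a transcription start, and the 250 bases before the start are printed here 5′ to 3′ for the genes at whose promoters summits fell. The first stretch is Pdgfra, chr5:75152001-75152250, plus strand, where the capitals run from the first to the last of the 3 EL summits in the window. The next is the upper start of Pdgfa, chr5:138994945-138995194, minus strand, where the capitals run between the outermost summits of EL replicates 1 and 3 and PT replicate 2.
Pdgfra: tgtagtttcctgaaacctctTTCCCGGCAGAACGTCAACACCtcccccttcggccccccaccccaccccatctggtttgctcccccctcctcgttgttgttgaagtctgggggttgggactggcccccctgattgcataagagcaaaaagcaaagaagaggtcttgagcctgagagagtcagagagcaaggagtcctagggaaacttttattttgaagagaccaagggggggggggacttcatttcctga
Pdgfa, upper start: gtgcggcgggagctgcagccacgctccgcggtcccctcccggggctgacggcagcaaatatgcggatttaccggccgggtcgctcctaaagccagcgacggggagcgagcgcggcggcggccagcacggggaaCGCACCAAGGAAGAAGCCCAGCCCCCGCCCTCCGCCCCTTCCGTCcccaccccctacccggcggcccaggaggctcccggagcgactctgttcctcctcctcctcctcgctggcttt

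The other pair of stretches lies before start sites past which regions were found. For the lower start of Pdgfa, chr5:138994282-138994531, minus strand, the capitals mark the letters GGGAGGG. For Pdgfc, chr3:81036166-81036415, plus strand, nothing is marked, since all summits near its start lay past the window.
Pdgfa, lower start: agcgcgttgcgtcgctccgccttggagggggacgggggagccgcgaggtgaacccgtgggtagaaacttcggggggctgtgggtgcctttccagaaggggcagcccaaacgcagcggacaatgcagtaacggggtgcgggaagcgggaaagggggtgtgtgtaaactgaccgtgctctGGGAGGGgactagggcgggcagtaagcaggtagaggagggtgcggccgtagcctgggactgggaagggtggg
Pdgfc: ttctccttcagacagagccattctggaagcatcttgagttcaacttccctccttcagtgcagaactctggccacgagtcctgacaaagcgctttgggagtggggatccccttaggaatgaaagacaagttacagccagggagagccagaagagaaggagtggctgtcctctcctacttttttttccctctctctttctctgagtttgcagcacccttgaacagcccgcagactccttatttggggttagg

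The 5 windows differed in composition. G and C made up 73.3% of the window at the upper start of Pdgfa and 67.0% at the lower start, against 51.0% at Pdgfra, 55.0% at Pdgfc and 56.7% at Pdgfd, and the median of all 32851 windows was 52.7%. The letters GGGGAGGGG, a G-rich run of the kind ZFP281 is known to bind, were searched on both strands. They stood in none of the 5 windows and in 6.37% of all windows. The shorter GGGAGGG, which is contained in the longer motif, occurred once at each Pdgfa start and in 22.0% of all windows. At the lower start it began at position -72, and at the upper start it lay on the reverse strand from position -217, counted from the base before the transcription start.

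Receptor genes carried summits mainly in EL spheres. Of the ligand genes, Pdgfa and Pdgfc carried them in every library, while Pdgfb had few and weak summits and Pdgfd none. All 6 genes together held 12, 21 and 12 summits in the EL libraries against 3, 5 and 8 in the PT libraries. The receptor genes held 8, 11 and 6 of these in EL and 0, 0 and 1 in PT, so that the groups did not overlap. Their means were 8.33 ± 2.52 in EL and 0.333 ± 0.577 in PT (SD, n = 3; two-sided exact permutation test, p = 0.1, the lowest value possible with 3 libraries a group). For single genes, EL above PT without overlap was found for 9.25% of all protein-coding genes. In equal lists the receptor genes held 0, 2 and 1 summits in EL and 0 in each PT library (two-sided exact permutation test, p = 0.4). The groups then overlapped, the difference between the means was 1, and all of these summits lay at Pdgfra. The ligand genes held 4, 10 and 6 summits in EL and 3, 5 and 7 in PT, which overlapped widely. Their means were 6.67 ± 3.06 and 5 ± 2 (SD, n = 3; two-sided exact permutation test, p = 0.6), and without EL replicate 2 the difference was 0. In equal lists the ligand counts were 2, 4 and 4 in EL against 3, 4 and 4 in PT, a difference of -0.333.

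The split between receptors and ligands was also expressed within each library, as the share of the summits of the 6 genes that lay at the receptors. It was 66.7%, 52.4% and 50% in EL and 0%, 0% and 12.5% in PT, with means of 56.3% ± 9.01 and 4.17% ± 7.22 (SD, n = 3; two-sided exact permutation test, p = 0.1). This share is no correction for list length, and its EL mean was 17.8% in equal lists. In equal lists the shares were 0%, 33.3% and 20.0% in EL and 0% in each PT library (two-sided exact permutation test, p = 0.4), and the groups then overlapped. The comparison of receptors with ligands was chosen after the data had been seen.

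A count for the whole set moved with list length. Per 1000 summits of its list, a library held 1.40, 1.33 and 1.70 summits at these genes in EL and 1.04, 1.24 and 1.33 in PT. The means of 1.48 ± 0.197 and 1.20 ± 0.149 (SD, n = 3) differed by 0.276 (two-sided exact permutation test, p = 0.1), and EL replicate 2 lay barely above PT replicate 3. The difference was 0.164 without EL replicate 3 and turned to -0.171 among summits with a score of at least 10. In lists of equal length the counts were 2, 6 and 5 in EL against 3, 4 and 4 in PT (two-sided exact permutation test, p = 0.8). The median number per gene of the set was 2, 4.5 and 2 in EL and 0, 0.5 and 1 in PT, while the median over all protein-coding genes was 0 in every library. These medians were not matched for gene length, and the stretches counted at the 6 genes spanned 64.8 to 405.9 kb.

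**Figure D1:**
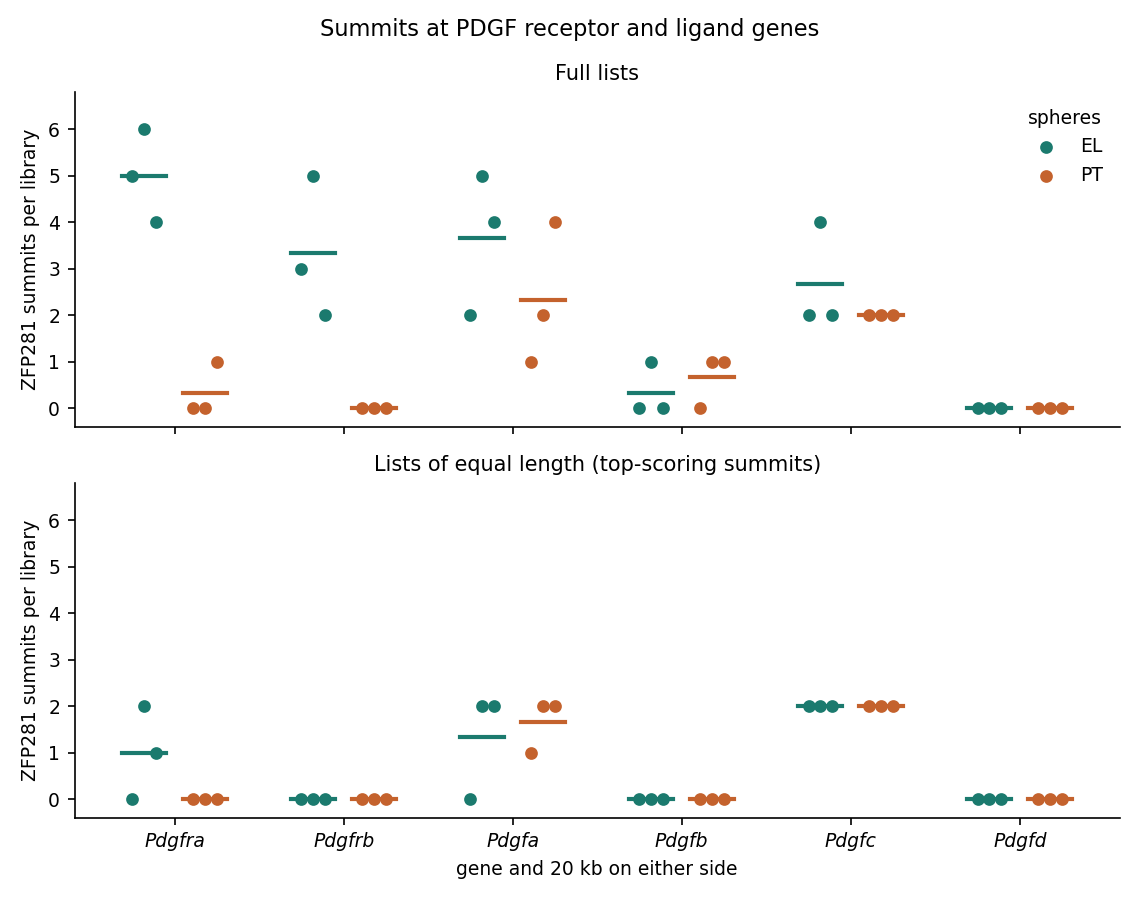
Number of ZFP281 summits per library (vertical axis) in each PDGF gene and 20 kb on either side (horizontal axis), in full lists above and in lists of 2897 summits below. Points are libraries and bars are group means; Pdgfra and Pdgfrb are separated by group in the full lists only, and Pdgfc holds 2 summits in every library of the equal lists.

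Pdgfra (gene ID 18595, chromosome 5, 75151322 to 75198206), the gene of the receptor of fibroblasts and their precursors, was the member with the most summits in EL. It held 5, 6 and 4 summits in EL replicates 1, 2 and 3, and 0, 0 and 1 in the PT libraries. Every EL library thus lay above every PT library. The means were 5 ± 1 and 0.333 ± 0.577 (SD, n = 3; two-sided exact permutation test, p = 0.1; 0.3 after Benjamini-Hochberg adjustment across the set). Of all protein-coding genes, 98.8% had a lower EL mean. The same complete separation, EL above PT, was found for 9.25% of all protein-coding genes, and for Pdgfra and Pdgfrb among the 6 members. The reverse separation was found for 0.274% of all genes and no member. In lists of equal length Pdgfra held 0, 2 and 1 summits in EL and 0 in each PT library, so that the groups overlapped. EL above PT then applied to 2.12% of all genes, PT above EL to 1.83%, and neither to a member.

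The Pdgfra summits were packed into 6 regions within 6.68 kb around the start of the gene, none of them deeper in the gene body. A region joins neighbouring summits, whatever their library, with gaps of up to 200 bp. In all 3 EL libraries were 4 of the regions, over 5.14 kb, and 3 of these occurred in no PT library. At least 4 regions in all 3 EL libraries were present at 0.809% of all protein-coding genes. At least 3 such EL-only regions were present at 0.297% of all protein-coding genes. The upstream region (75148427 to 75148527) had scores of 6.23, 25.5 and 9.24 in EL replicates 1, 2 and 3, and lay 3774 bp before the transcription start of the promoter window. These scores stood at percentiles 30.1, 83.4 and 54.2 of their lists. The region inside the promoter window (75152021 to 75152042), drawn in capitals above, spanned 22 bp and lay 220 bp before the start. It scored 6.82, 9.36 and 5.86, at percentiles 35.6, 51.7 and 30.7. A promoter window with a summit in every EL and no PT library made up 0.335% of all windows, and one with a summit in at least 3 libraries, as also at the upper start of Pdgfa, 2.98%. The third EL-only region (75153495 to 75153566) lay 1280 bp past the transcription start of the promoter window and 2173 bp inside the lower gene boundary, with scores of 10.7, 17.6 and 6.42 and percentiles 60.6, 75.2 and 32.6. All 3 regions were of middling or low rank in EL replicates 1 and 3.

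The Pdgfra region shared with a PT library had the highest score of the gene in EL replicates 2 and 3, while in EL replicate 1 the region 1280 bp past the start scored higher. The shared region lay at the lower gene boundary (75151228 to 75151285), 37 bp outside the annotated gene and 994 bp before the start of the promoter window's transcript. Its scores were 8.95, 30.3 and 17.6 in EL replicates 1, 2 and 3 and 7.76 in PT replicate 3, at percentiles 50.9, 86.9, 79.5 and 46.5. Only EL replicates 2 and 3 kept this region in lists of equal length. The PT replicate 3 summit ranked 3340 in its list and fell out. The remaining 2 regions were weaker and less regular, one found in EL replicate 2 alone and one in EL replicates 1 and 2.

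Pdgfrb (gene ID 18596, chromosome 18, 61045127 to 61085067), the gene of the receptor of mural cells, carried summits of low to middling score in the EL libraries and none in PT. It held 3, 5 and 2 summits in EL replicates 1, 2 and 3 and 0 in each PT library, a separation like that of Pdgfra (means 3.33 ± 1.53 and 0, SD, n = 3; two-sided exact permutation test, p = 0.1; 0.3 after Benjamini-Hochberg adjustment across the set). A summit in all 3 EL and no PT library within this reach was found for 5.19% of all protein-coding genes. In lists of equal length Pdgfrb held no summit in any library, and with a score of at least 5 the EL numbers were 2, 4 and 0 in replicates 1, 2 and 3.

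All 5 Pdgfrb regions lay inside the gene. Those found in all 3 EL libraries were 2 in number and stood 9643 bp (61054770 to 61054852) and 12103 bp (61057230 to 61057342) above the lower gene boundary. The nearer one had scores of 7.87, 12.4 and 2.40 in EL replicates 1, 2 and 3, at percentiles 44.4, 63.6 and 2.21. The other had scores of 5.55, 14.1 and 4.83, at percentiles 27.0, 68.3 and 20.9. In EL replicate 3 both lay in the weaker part of the list, the nearer one close to its end. At least 2 EL-only regions were present at 1.71% of all protein-coding genes. A summit within 1 kb of a gene boundary was found for Pdgfrb in EL replicates 1 and 2 only, at percentiles 0.442 and 19.6.

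**Figure D2:**
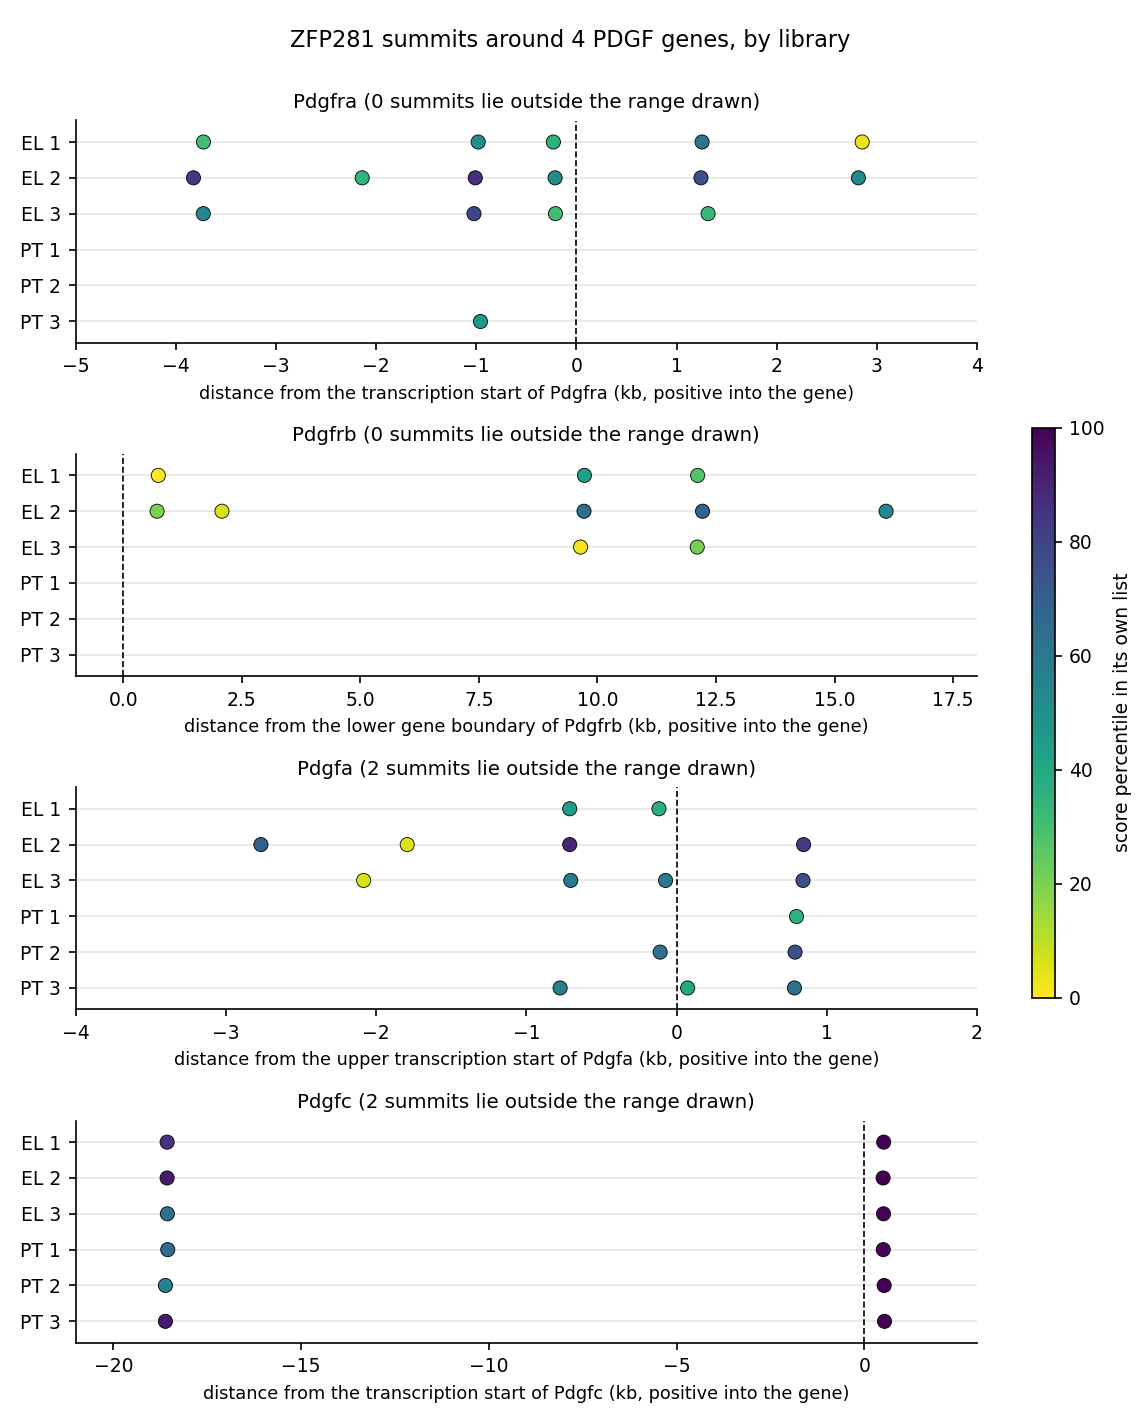
ZFP281 summits of each library (rows) by distance in kb from the transcription start or, for Pdgfrb, the lower gene boundary (horizontal axes), coloured by the percentile of the score within its own list. The receptor panels are filled in the EL rows and, but for 1 Pdgfra summit in PT replicate 3, empty in the PT rows, whereas the Pdgfc panel shows the same pair of positions in all 6 rows.

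Pdgfa (gene ID 18590, chromosome 5, 138976014 to 139000792) encodes PDGF-A, a ligand of PDGFRα. It was bound in every library, with 2, 5 and 4 summits in EL and 1, 2 and 4 in PT, and the groups overlapped (means 3.67 ± 1.53 and 2.33 ± 1.53, SD, n = 3; two-sided exact permutation test, p = 0.5). A summit within reach in all 6 libraries was found for 13.0% of all protein-coding genes, and among the members for Pdgfa and Pdgfc. In equal lists a summit in all 6 libraries was found for 8.76% of all genes and for Pdgfc alone among the members. Pdgfa then held 0, 2 and 2 summits in EL and 1, 2 and 2 in PT.

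The Pdgfa summits fell into 8 regions, and the 3 that recurred lay around its start sites. The region past the lower start (138994098 to 138994159), 152 bp into the transcript, was found in EL replicates 2 and 3 and in all 3 PT libraries. Its scores were 25.6 and 15.4 in those EL replicates, and 7.50, 16.4 and 11.6 in PT replicates 1, 2 and 3. The EL summits stood at percentiles 83.5 and 75.6 and the PT summits at 35.9, 75.8 and 64.3, so the groups overlapped. The region at the upper start (138994870 to 138995061) held summits of EL replicates 1 and 3 and PT replicates 2 and 3, with scores of 6.84, 10.6, 12.0 and 6.86. The region 740 bp upstream of the upper start (138995648 to 138995719) held all 3 EL libraries and PT replicate 3, with scores of 7.87, 35.4 and 10.2 in EL replicates 1, 2 and 3 and 9.98 in PT replicate 3. No Pdgfa region was found in all 6 libraries, and none in every library of 1 group and no library of the other. The other 5 regions were each found in 1 library. Pdgfa had no summit within 1 kb of a gene boundary, as its annotated upper boundary lies beyond both start sites of the promoter windows.

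Pdgfb (gene ID 18591, chromosome 15, 79995865 to 80024614) encodes PDGF-B, the ligand that recruits mural cells to vessels. It had few and weak summits, 0, 1 and 0 in EL and 0, 1 and 1 in PT (two-sided exact permutation test, p = 1). The PT summits shared a region inside the gene (80012925 to 80012971), with scores of 2.66 and 4.32 in replicates 2 and 3, at percentiles 1.94 and 19.8. The EL replicate 2 summit lay 265 bp inside the upper boundary with a score of 4.45, at percentile 18.1. None of the 3 summits was in a list of equal length.

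Pdgfc (gene ID 54635, chromosome 3, 81036416 to 81214040) encodes PDGF-C, a latent ligand with a CUB domain that acts through PDGFRα. It held the strongest ZFP281 site of the set, at the same place in both groups. The region (81036917 to 81036954) spanned 38 bp and lay 520 bp past the transcription start, inside the gene. Its scores were 98.2, 211.8 and 89.7 in EL against 65.5, 77.1 and 132.3 in PT. Within their lists these summits ranked 48, 21 and 42 in EL and 42, 29 and 19 in PT, so every list placed it among its top summits. The lowest percentile of the region in any list was 98.6. Among the 1573 regions found in all 6 libraries it ranked 26 by that lowest percentile. A boundary summit in all 6 libraries was found for 4.39% of all protein-coding genes, and among the members for Pdgfc alone. In equal lists the share of all genes was 2.99%, and Pdgfc was again the only such member. With the EL libraries alone, a boundary summit in all 3 was found for 9.81% of all genes in full lists, Pdgfra and Pdgfc among them, and for 4.32% in equal lists, where Pdgfc remained.

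A further Pdgfc region was also present in all 6 libraries, 18580 bp before the start (81017805 to 81017867) and between genes. Its scores were 23.0, 45.3 and 11.2 in EL against 13.4, 10.4 and 39.1 in PT, at percentiles of 85.4, 92.6 and 62.3 in EL and 65.1, 55.9 and 93.1 in PT. The percentiles of the groups overlapped, and both regions remained in all 6 lists of equal length. At least 2 regions in all 6 libraries were present within reach of 1.29% of all protein-coding genes. Pdgfc thus held 2, 4 and 2 summits in EL and 2 in each PT library, the surplus being 2 summits found in EL replicate 2 alone.

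Pdgfd (gene ID 71785, chromosome 9, 6168363 to 6534284) encodes PDGF-D, a latent ligand that acts through PDGFRβ. It held no summit in any library, although it is the longest gene of the set at 365.9 kb. The absence of any summit was shared with 48.6% of all protein-coding genes and with 36.4% of the 409 genes at least as long as Pdgfd. In equal lists 72.1% of all genes and 3 of the members, Pdgfrb, Pdgfb and Pdgfd, had none.

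Across the set the merged regions numbered 25. Of these, 2 were found in all 6 libraries, both at Pdgfc, and 5 in every EL and no PT library, 3 at Pdgfra and 2 at Pdgfrb. None was found in every PT and no EL library. Of all 19317 merged regions, whatever their position, 1573 were found in all 6 libraries. The EL libraries alone shared 1937 of them and the PT libraries alone shared 136. The share at the 6 genes was higher than over all regions for the EL class only, and this was not tested. Neither the pair at Pdgfc nor the missing PT class thus sets these genes apart by number. Another 11 of the 25 regions were found in a single library, 9 of them in EL replicate 2, which has the longest list. With a merging distance of 50 bp, 2 regions were found in every EL and no PT library. In lists of equal length 2 regions in all 6 libraries remained in number, and no region was found in every EL and no PT library.

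**Figure D3:**
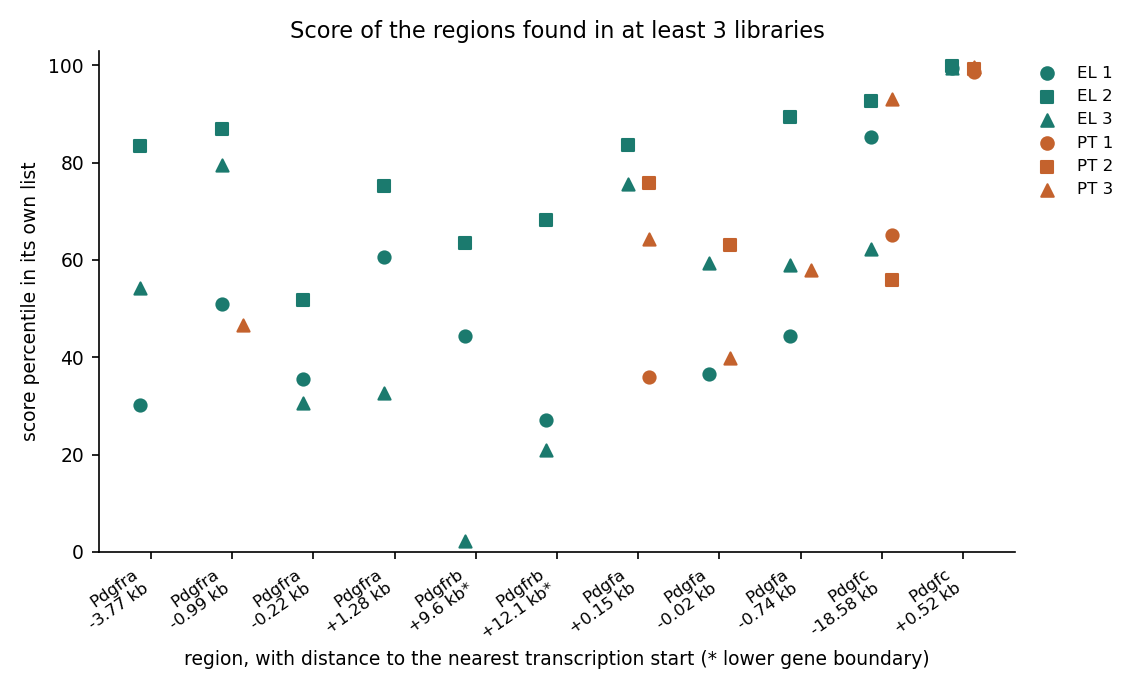
Percentile of the summit score within its own list (vertical axis) for each region of the PDGF genes found in at least 3 libraries (horizontal axis, with the distance to the nearest transcription start or, for Pdgfrb, to the lower gene boundary). The Pdgfc region at +0.52 kb lies at or above 98.6 in all 6 libraries, while the regions found in EL alone spread from 2.21 to 83.4.

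Genes with the most similar pattern were sought by the mean absolute difference of the best percentile within reach over the 6 libraries, with 0 where a library had no summit. For Pdgfra these were Galk1, H3f3b and Itgb4, which had identical percentiles to each other and differed from Pdgfra by 1.65 points on average. For Pdgfrb they were Itga11 (1.01 points), Slfn5 (1.16) and Unc45b (1.66), all without a PT summit. For Pdgfa they were Sat1 (3.43), Hspa4l and Slc25a31 (5.26 each). For Pdgfb they were Dlat (0.438), Edrf1 (0.473) and Tspear (0.945), and for Pdgfc they were Nfic and Smim24 (0.156 each) and Cox20 (0.202). A summit counted for every gene within 20 kb, so genes with identical percentiles may share summits and need not be separate matches. This applies to Galk1, H3f3b and Itgb4, to Hspa4l and Slc25a31, and to Nfic and Smim24.

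Downstream and upstream of the receptors, 30 genes of PDGF signalling were examined for a summit within 1 kb of either boundary. They were bound in 17, 21 and 14 cases in EL and in 5, 8 and 11 in PT. The EL shares of 56.7%, 70% and 46.7% stood beside 13.5%, 20.8% and 11.7% of all protein-coding genes. In PT, shares of 16.7%, 26.7% and 36.7% stood beside 5.75%, 7.53% and 11.1%. A boundary summit in all 6 libraries was found for 4 of them, against 4.39% of all protein-coding genes. In order of the lowest percentile these were Cbl (70.6), a ubiquitin ligase that removes activated receptors, Stat3 (66.7), a transcription factor, Nck2 (58.9), an adaptor, and Src (8.42), a kinase that binds the receptors. In every EL and no PT library were 4 genes, against 1.94% of all genes. These were Plat (63.5), the gene of the tissue plasminogen activator that releases PDGF-C, Pik3ca (51.0) and Pik3r2 (13.8), subunits of phosphoinositide 3-kinase, and the adaptor gene Crk (1.07). Src and Crk were named after their values had been seen. No gene of the list showed the reverse, which held for 0.0457% of all genes, and 8 had no boundary summit in any library, among them Plau, the gene of a protease that releases PDGF-D. In lists of equal length the numbers were 6, 5 and 7 in EL against 5, 7 and 7 in PT, so the groups overlapped. Of all genes, 5.75% to 6.21% then had a boundary summit in a library. Within 20 kb, every EL number was above every PT number for 5 of the 30, against 9.25% of all genes. In equal lists this held for 1 gene and the reverse for 1, against 2.12% and 1.83% of all genes.

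Among related receptors and ligands, those of the KIT, CSF1, FLT3 and VEGF systems with the receptor-like gene Pdgfrl, boundary summits were no more frequent than over all genes. Of 16 genes, among them Kit, Csf1r, Kdr, Flt1 and Vegfa, 2, 3 and 1 had a boundary summit in EL and none in PT. These EL shares of 12.5%, 18.8% and 6.25% stood beside 13.5%, 20.8% and 11.7% of all protein-coding genes. Csf1, the gene of the macrophage growth factor, was bound in every EL and no PT library, against 1.94% of all genes. Its lowest percentile was 48.2, and it was bound in 2 EL libraries at equal list length. No boundary summit in any library was found for 13 of the 16, against 76.9% of all protein-coding genes, including Kit, the receptor gene next to Pdgfra, and Csf1r, the one next to Pdgfrb. Within the reach of 20 kb, every EL number was above every PT number for 4 of the 16, Pdgfrl, Csf1, Vegfa and Vegfd, against 9.25% of all genes. Pdgfrl held 2, 3 and 1 summits in EL and 0 in each PT library. Vegfa, the gene of a vascular growth factor, held 4, 4 and 3 against 2 in each PT library. None of the 16 was separated in this way in equal lists. These genes were named after their values had been seen.

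Marker genes of cells that carry PDGF receptors, and of endothelial, leukocyte and mammary epithelial cells, were counted in the same way. Of 9 fibroblast markers, 3, 5 and 3 had a boundary summit in EL and 0 in each PT library, with Col1a1, Dcn and Col1a2 in every EL library. A boundary summit in every EL and no PT library was found for 1.94% of all genes. At equal list length the numbers were 1, 3 and 3 in EL and 0 in PT. Of all genes, 5.95% to 6.09% then had a boundary summit in an EL library and 5.75% to 6.21% in a PT library. Of 8 mural cell markers, 0, 3 and 0 were bound in EL and 0, 1 and 1 in PT. None of 7 endothelial and none of 7 leukocyte markers was bound at a boundary in any library, and of 8 mammary epithelial markers 1, 1 and 1 were bound in EL and 1, 1 and 2 in PT. Within 20 kb, the measure used for the receptor genes, every EL number was above every PT number for 4 of the 9 fibroblast markers, 2 of the 8 mural cell markers (Acta2 and Des) and 1 of the 7 leukocyte markers (Cd68), and for no endothelial or mammary epithelial marker, against 9.25% of all genes. In equal lists this held for 3 fibroblast markers, no other marker and neither receptor gene, against 2.12% of all genes. The reverse, PT above EL, then held for 1 leukocyte and 1 mammary epithelial marker, against 1.83% of all genes. Acta2, Des and Cd68 were named after their values had been seen. These are counts of bound genes and not RNA levels, and the part of fibroblasts among the cells of the spheres in the receptor result was not tested. Over all protein-coding genes, 11.7% to 20.8% had a boundary summit in an EL library and 5.75% to 11.1% in a PT library.

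**Figure D4:**
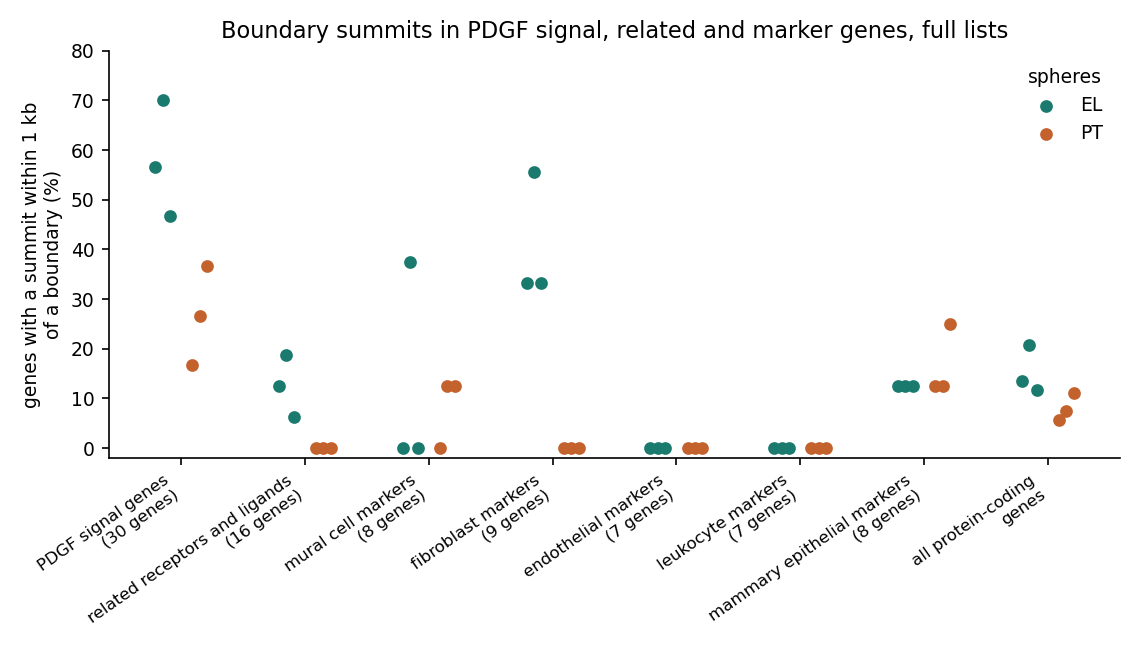
Percentage of the genes of each list with a ZFP281 summit within 1 kb of a gene boundary (vertical axis) in each library (points), full lists, with all protein-coding genes at the right. PDGF signal genes lie above all protein-coding genes in both groups, and fibroblast markers are at 0 in the 3 PT libraries.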

How the data were processed

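ZFP281 chromatin immunoprecipitation libraries gave read pairs of 150 bp per end, per the labels' protocols. Per the submitters' processing notes, mm10 was the build and Bowtie2 2.3.4.3 and Picard were used. For the peak caller, its threshold and the use of inputs, the sources used here state nothing. Per library the authors deposited a list of summits of 1 bp with a score, taken for a −log10 q-value since no score in any list is below 1.30, with lowest scores of 1.30 to 1.55. Ranks and percentiles (share of the list at or below a score) were taken within a list, on chromosomes 1 to 19, X and Y. Gene bounds came from RefSeq (GRCm38.p6), without exons. A summit counted for every gene within 20 kb, and separately within 1 kb of a boundary. Groups were compared by the exact permutation test (two-sided, 3 against 3 libraries, 20 relabellings), adjusted over the 6 genes by the Benjamini-Hochberg method. Members and lists were chosen with earlier results of these data known. List genes were named by class, at most 6 per list by lowest percentile, and the 3 most similar genes lay over 1 Mb away. Counting was tested on simulated data. Python 3.11.15, numpy 2.4.6 and pandas 2.3.3 were used. No pair of lists shared more than 81 positions. Alternatives were list length, score, reach, merging distance, each library left out and a replicate block.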

Additional observations from a re-analysis of the deposited data

How the results depend on the processing

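No test here could pass 0.05, so only directions and sizes can be followed. The ligand difference, EL minus PT, became -0.333 summits per library in lists of equal length, and that of Pdgfa -0.333. Left out in turn, libraries moved it to between 0 (without EL replicate 2) and 3 (without EL replicate 1). The difference per 1000 summits became -0.171 at a score of at least 10, with EL at 1.42 and PT at 1.59. The number of genes with every EL count above every PT count, 2 in full lists, was 0 in equal lists and 1 at a score of at least 5 or of at least 10, where Pdgfrb was lost. The share of all genes was 9.25% in full and 2.12% in equal lists, and was not computed at these scores. Regions in every EL and no PT library, 5 at a merging distance of 200 bp, were 2 at 50 bp and 0 in equal lists, and between 5 and 7 with a library left out. Regions in every PT and no EL library numbered between 0 and 1, the latter without PT replicate 1 and at Pdgfb. GGGAGGG in place of GGGGAGGGG was found in the windows of 1 gene and not 0. The receptor difference stayed positive in all settings run, from 1 summit per library in equal lists to 11.3 with a reach of 50 kb. With the replicate block it was 8 (exact sign-flip test, p = 0.25, the smallest that 3 pairs allow). Deviations of same-numbered libraries correlated at -0.0601, -0.000761 and -0.00919 over 19317 regions, and those of differently numbered ones at -0.0417 to 0.0588. As all of these values are small, they cannot decide whether the replicate numbers stand for a pairing. Direction or size was kept in 121 of 131 alternative values for the set and in 69 of 78 for single genes. These numbers overstate stability. A difference was taken as kept on its sign alone, as when the receptor difference fell from 8 to 1. The replicate block could not change a value, and Pdgfd was 0 in every setting. The cause of the shifts between settings was not tested.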

Other observations

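Outside the reach of 20 kb, the surroundings of Pdgfrb held stronger summits than the gene. A region inside the amino acid transporter gene Slc6a7 (chromosome 18, 61001400 to 61001452), 43675 bp below the lower boundary of Pdgfrb, was found in every EL and no PT library. Its scores were 62.7, 112.0 and 55.4 in EL replicates 1, 2 and 3, at percentiles 98.1, 98.9 and 98.0, and it ranked 3 by the lowest percentile among the 1937 regions of this class. A further region in Slc6a7 (61013152 to 61013273), 31854 bp below Pdgfrb, held the 3 EL libraries and PT replicate 2, with scores of 6.03, 16.3 and 5.01 in EL and 8.90 in PT. Another region found in every EL and no PT library (61014232 to 61014239), 30888 bp below Pdgfrb, stood at percentiles 70.7, 66.3 and 2.71. Single summits of EL replicate 2 lay 32667 bp below and 35560 bp above the gene. With a reach of 50 kb the receptor difference therefore includes these regions and summits, and no assignment of them to Pdgfrb can be made from position.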
